A study of Oryctolagus cuniculus with 49 samples.

Results

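The nuclear-encoded subunits of oxidative phosphorylation were examined in the rabbit iris and ciliary body as a group of 78 genes out of the 12928 gene symbols measured. Members were chosen by symbol alone: NADH dehydrogenase genes of the NDUFA, NDUFB, NDUFC, NDUFS and NDUFV series with a number, SDHA to SDHD, genes beginning with UQCR or UQCC, cytochrome c (CYCS), the COX4 to COX8 genes and genes beginning with ATP5. The rule uses no expression value, but it was set with earlier results of these data known. Of the 78, 55 carried such a symbol as deposited, and 23 were listed under a locus number and took their symbol from RefSeq's list of genes for assembly mOryCun1.1. CYC1, which the rule also names, had no row in the table used. Some complex I subunits, among them NDUFV1, NDUFS7, NDUFS8, NDUFB7 and NDUFB10, are not among the members either. The counts and medians of complex I therefore do not cover the whole complex. By name, 33 members belong to complex I, 4 to complex II, 10 to complex III, 13 to complex IV and 17 to complex V, and CYCS is the electron carrier between complexes III and IV. The names include a few proteins that are not core subunits: UQCC1, UQCC2 and UQCC3 are complex III assembly factors, ATP5S and ATP5SL only carry the ATP synthase name, and NDUFA4 is now counted with complex IV.

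Oxidative phosphorylation takes place in the inner mitochondrial membrane. Complex I and complex II take electrons from NADH and succinate, complex III passes them to cytochrome c, complex IV hands them to oxygen, and the ATP synthase, complex V, uses the resulting proton gradient to make ATP. The ciliary body secretes aqueous humour by active ion transport, and its epithelium and the iris muscles draw on mitochondrial ATP.

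Total RNA from the iris and ciliary body of New Zealand white rabbits was sequenced after lensectomy with intraocular lens insertion, and in unoperated eyes. The 26 libraries came from 26 animals: 7 unoperated and 3 operated at 5 weeks of age, 3 operated at 6.5 weeks, and 7 unoperated and 6 operated at 6 months. No unoperated group of 6.5 weeks was analysed here, and the sources used here do not say how long after surgery the tissue was taken. The series asks how transcripts of the front of the eye change after this operation in young and adult animals. All groups were of 1 breed and carried no label of a genetic change. The 23 cornea samples were not analysed here.

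Values are FPKM, the number of sequenced fragments of a transcript after division by its length and by all fragments mapped in that library, summed over the 90 transcripts of the 78 members. A gene is said to have risen or fallen where limma, fitted to log2(FPKM + 0.5) of all genes in all 26 libraries, gave a Benjamini-Hochberg adjusted p under 0.05. Fold changes are log2 differences on that scale and are given with their standard error (SE). Comparisons were made between operated and unoperated eyes at 6 months, between the mean of the operated 5-week and 6.5-week groups and unoperated 5-week eyes (juveniles), and between 6 months and 5 weeks among unoperated eyes. The first and the last share the 6-month unoperated libraries, and the juvenile and age comparisons share the 5-week unoperated libraries.

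The listed FPKM summed to 412936 to 504202 per library, and read depth is unknown. At 6 months that sum was 431241 to 456586 without surgery and 476369 to 504202 after it, so library scaling bears on small changes. The 78 members together took 1.72% to 1.97% of the sum without surgery at 6 months and 1.55% to 1.71% after it, with no overlap. Their summed FPKM did overlap, at 7431 to 8975 without surgery and 7367 to 8384 after it. Scaled to equal library sums, the members' median log2 fold change was -0.22, beside -0.245 for all genes. The juvenile shares were 1.52% to 1.84% without surgery and 1.48% to 1.75% after it, and they overlapped. Markers of cell types changed as well: 11 of 11 macrophage markers rose at both ages, and 8 of 12 ciliary epithelium markers fell while 1 rose. Of all genes, 16.1% rose and 30.1% fell at 6 months, and 16.5% and 20.8% in juveniles. The summed ciliary epithelium markers were 3352 to 4346 FPKM without surgery at 6 months and 1441 to 2661 FPKM after it, and 3514 to 5639 FPKM and 1263 to 2155 FPKM in juveniles. Their part in the members' changes was not tested. In bulk tissue, fewer cells of a type and less RNA per cell cannot be told apart.

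The members were abundant transcripts. Their median level over all libraries was 78.3 FPKM, against 11.9 FPKM for all genes, and 75 of 78 lay above the median of all genes. ATP5B, the catalytic beta subunit of ATP synthase, was the highest at 306 FPKM, followed by ATP5A1, the alpha subunit, at 265 FPKM and COX4I1, the widespread form of complex IV subunit 4, at 252 FPKM. In complex I the highest was NDUFA4 at 166 FPKM and the lowest NDUFA9 at 28.8 FPKM. SDHC, a membrane anchor of complex II, led that complex at 138 FPKM, and UQCRQ led complex III at 134 FPKM. The lowest members of complex IV were the isoforms COX4I2 at 8.9 FPKM and COX7A1 at 10.8 FPKM, and of complex V the lowest was ATP5S at 11.1 FPKM. Within groups the members varied little: the median coefficient of variation was 10.7%, and 67 of 78 members were under 15%.

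A pair of libraries stood apart and touches many of the 6-month values. In 6-month operated replicates 4 and 6, 22 of 78 members (28.2%) lay outside the range of all the other 24 libraries in the same direction, against 12.7% of all genes. The 9 members above were NDUFA3, NDUFB4, NDUFV3, UQCC2, UQCRQ, COX6B1, COX7A2L, COX8A and ATP5J2. Among the 13 below were NDUFA1, NDUFB5, NDUFC1, NDUFS3, SDHD, UQCRC2, UQCRFS1, COX7C, ATP5A1, ATP5C1, ATP5G3 and ATP5L. Both directions occurred inside each of complexes I, III, IV and V, so a scaling of the whole library cannot bring them together.

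The distances were large for these otherwise steady genes. NDUFA3, an accessory subunit of complex I, stood at 261 and 287 FPKM in replicates 4 and 6 against 108 to 169 FPKM elsewhere. COX6B1, a complex IV subunit facing the intermembrane space, stood at 312 and 387 FPKM against 192 to 257 FPKM. UQCRFS1, the Rieske iron-sulfur protein of complex III, stood at 48.0 and 41.5 FPKM against 77.1 to 109 FPKM. COX7C, a small complex IV subunit, stood at 93.1 and 78.4 FPKM against 126 to 197 FPKM. The cause was not tested. Below, the counts of members called with surgery at 6 months are given with and without both libraries, the members whose call was lost are named, and so are the gene lists printed here whose count moved by more than 1.5 times.

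**Figure D1:**
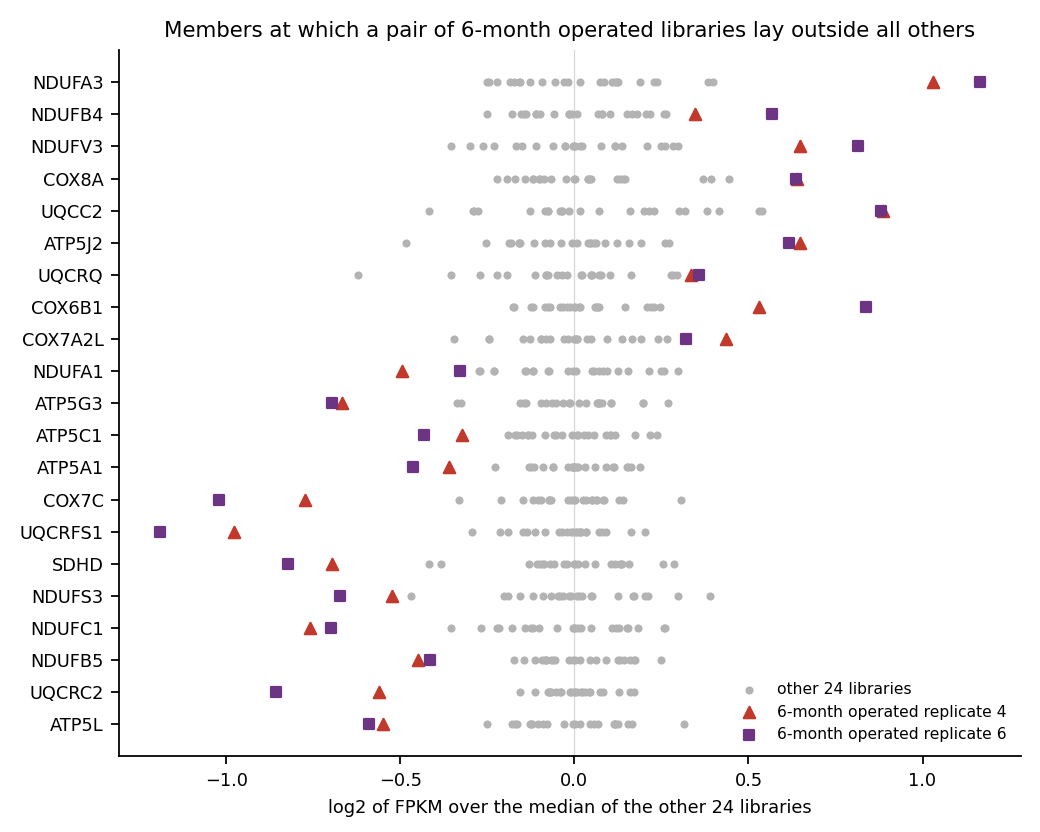
Each row is 1 of 21 members, the horizontal axis is the log2 of its FPKM over the median of the other 24 libraries, grey points are those 24 libraries, and the triangle and square are 6-month operated replicates 4 and 6. The 9 members at the top have both symbols to the right of every grey point, and the 12 of the 13 others that are drawn have both to the left.

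At 6 months most members differed little between operated and unoperated eyes, and single members moved apart within the same complex. Of 78 members, 9 rose and 16 fell, against 16.1% of all genes that rose and 30.1% that fell (46.2% in either direction). The members' median log2 fold change was -0.07, beside -0.105 for all genes, and 73 of 78 fold changes were under 0.5 in size. The largest changes were in isoforms: NDUFA4L2 and COX4I2 rose, and COX7A1 fell. ATP5B, SDHA and NDUFS1 fell by less, while SDHB and NDUFV2 were not called. Without the pair of libraries that stand apart, 6 members rose and 9 fell, against 14.8% and 23.2% of all genes. All 6 of those rises and 7 of those falls were among the calls made with every library.

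**Figure D2:**
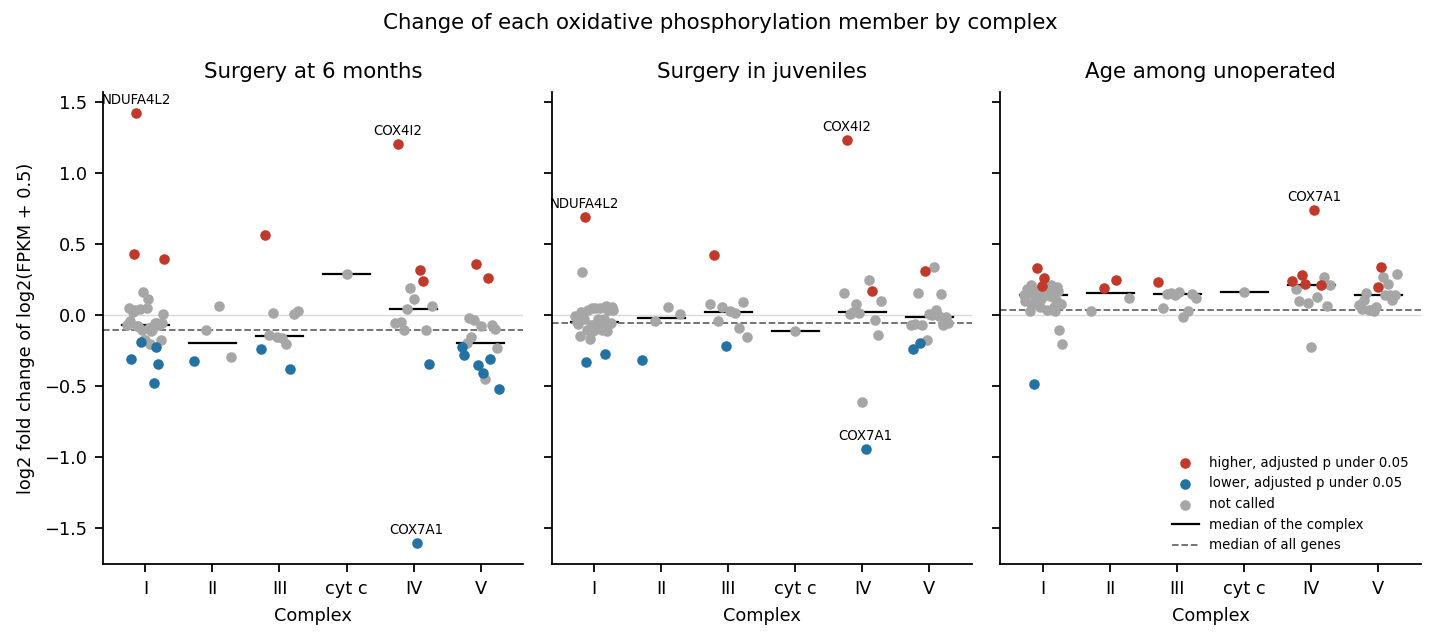
Each point is a member, placed by complex, with its log2 fold change in 3 comparisons; red points rose, blue points fell and grey points were not called, the black bar is the median of the complex and the dashed line the median of all genes. NDUFA4L2, COX4I2 and COX7A1 lie far from the other members, whose values lie near 0.

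NDUFA4L2 is a relative of NDUFA4 that is known to be induced by low oxygen. In 6-month unoperated eyes it ranged from 14.2 to 21.2 FPKM with a median of 20.1, and in operated eyes from 34.2 to 72.0 FPKM with a median of 51.0. The ranges did not overlap. The means were 18.4 ± 2.81 FPKM (SD, n = 7) and 51.0 ± 13.2 FPKM (SD, n = 6), a log2 fold change of 1.42 ± 0.14 (limma adjusted p = 1.1e-08). Without replicates 4 and 6 it was 1.27. In juveniles the gene also rose, from 21.5 to 30.2 FPKM in unoperated eyes to 30.7, 34.0 and 47.6 FPKM at 5 weeks and 43.3, 44.5 and 54.8 FPKM at 6.5 weeks (log2 0.69 ± 0.14, limma adjusted p = 0.0003). Its partner NDUFA4 was not called in either comparison and averaged 170 ± 20.2 FPKM (SD, n = 7) without surgery at 6 months and 175 ± 21.4 FPKM (SD, n = 6) after it. Within each library, NDUFA4L2 was 9.08% to 13.1% of NDUFA4 in unoperated and 18.4% to 48.4% in operated eyes at 6 months, a ratio that library scaling cannot move.

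COX4I2 is the form of complex IV subunit 4 known from lung and from vessel-associated cells, where it takes part in oxygen sensing. It ranged from 4.17 to 7.51 FPKM (median 5.52) in unoperated and from 9.65 to 18.5 FPKM (median 13.5) in operated eyes at 6 months. All operated libraries lay above all unoperated ones, and the log2 fold change was 1.21 ± 0.16 (limma adjusted p = 2e-06). In juveniles the operated values were 9.90, 9.96 and 10.8 FPKM at 5 weeks and 11.4, 13.5 and 19.1 FPKM at 6.5 weeks, against 3.38 to 7.83 FPKM in unoperated eyes (log2 1.24 ± 0.16, limma adjusted p = 1.7e-06). COX4I1 was not called in either comparison. As a share of COX4I1 in the same library, COX4I2 was 1.74% to 2.43% in unoperated and 3.50% to 6.92% in operated eyes at 6 months, and 1.66% to 3.03% and 4.25% to 7.41% in juveniles.

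Some markers of pericytes, the contractile cells around small vessels, rose in the same comparisons. On a list added after these results were seen, 4 of 9 measured markers rose and 1 fell at 6 months (16.1% and 30.1% of all genes), with RGS5 at log2 1.57, MCAM at 0.99, NOTCH3 at 0.48 and ABCC9 at 0.42 on the higher side and ANPEP at -0.61 on the lower side. PDGFRB, CSPG4, KCNJ8 and HIGD1B were not called. The markers summed to 215 to 246 FPKM without surgery at 6 months and 269 to 371 FPKM after it, and in juveniles to 211 to 266 FPKM against 269 to 295 FPKM at 5 weeks and 323 to 380 FPKM at 6.5 weeks. Their part in the rise of NDUFA4L2 and COX4I2 was not tested.

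COX7A1 went the other way. It is the form of complex IV subunit 7a of heart and skeletal muscle and brown fat, while COX7A2 is the widespread form. In unoperated 6-month eyes it ranged from 13.8 to 26.1 FPKM with a median of 17.4, and in operated eyes from 2.76 to 7.91 FPKM with a median of 6.48. The groups did not overlap, and the log2 fold change was -1.60 ± 0.19 (limma adjusted p = 2.7e-07), or -1.43 without replicates 4 and 6. In juveniles it fell from 8.24 to 12.9 FPKM in unoperated eyes to 3.44, 4.12 and 6.31 FPKM at 5 weeks and 5.30, 7.27 and 7.41 FPKM at 6.5 weeks (log2 -0.94 ± 0.19, limma adjusted p = 0.00034). COX7A2 rose at 6 months (log2 0.32 ± 0.11, limma adjusted p = 0.017). COX7A1 was 15.2% to 23.2% of COX7A2 in unoperated and 2.59% to 6.66% in operated eyes at 6 months, and 10.0% to 12.8% and 3.27% to 6.97% in juveniles.

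Of 9 measured smooth muscle markers 6 fell and none rose at 6 months (30.1% and 16.1% of all genes), while CALD1, DES and TAGLN were not called. Their sum over the 9 was 2214 to 2659 FPKM without surgery and 1590 to 2334 FPKM after it. In juveniles 5 fell and 2 rose (20.8% and 16.5% of all genes). The sum was 1591 to 2367 FPKM without surgery, 1374 to 1726 FPKM in operated 5-week eyes and 1842 to 2246 FPKM in operated 6.5-week eyes, the last inside the unoperated range. CKM, the muscle creatine kinase, fell by 1.38 on the log2 scale at 6 months, while MYLPF, the only other skeletal muscle marker measured, was at -0.01. The part of muscle cells in the fall of COX7A1 was not tested.

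**Figure D3:**
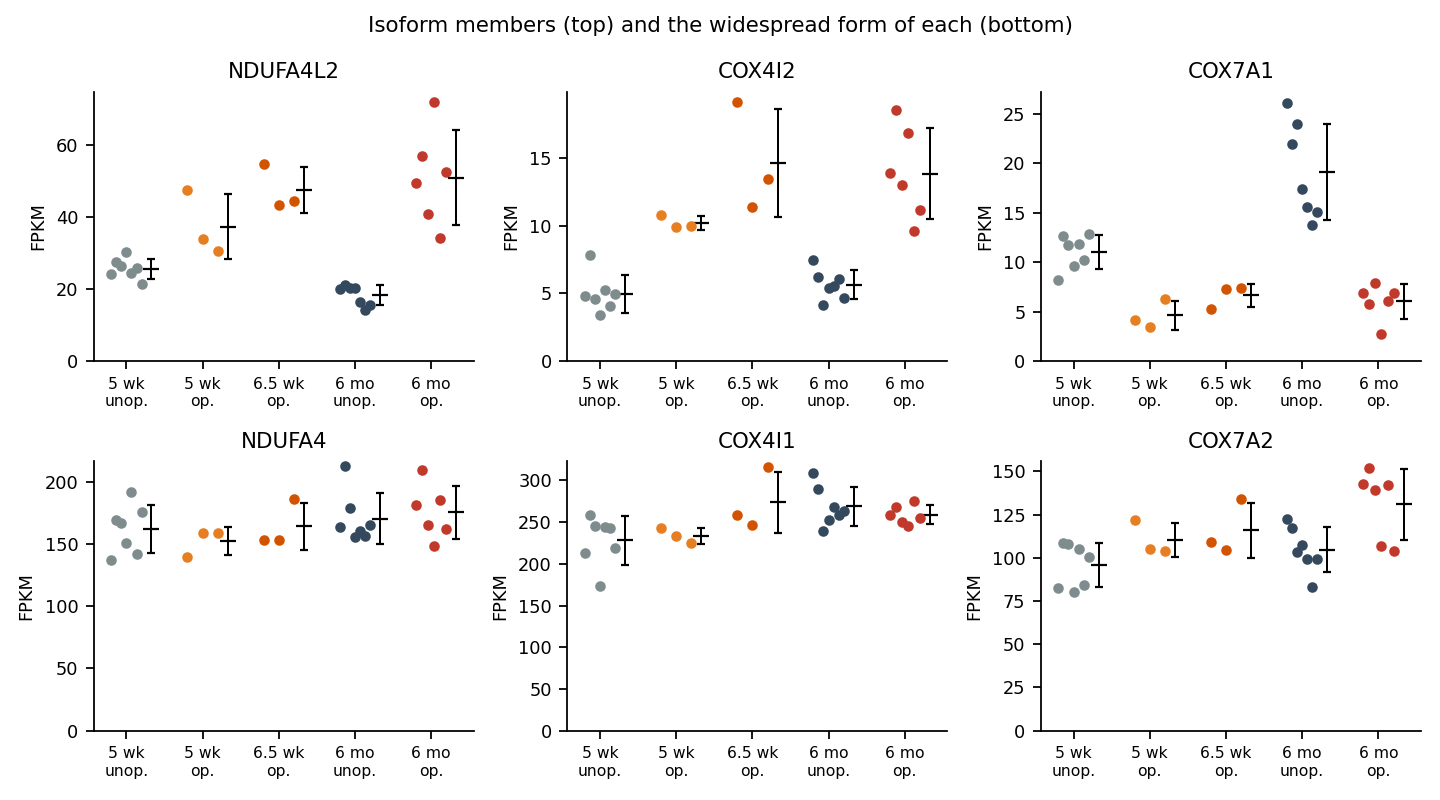
FPKM of NDUFA4L2, COX4I2 and COX7A1 (top) and of NDUFA4, COX4I1 and COX7A2 (bottom) in each library of the 5 groups, with the mean and SD beside the points. In the top row operated and unoperated libraries of the same age span do not overlap, and in the bottom row they do.

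Complex I, the NADH dehydrogenase, had 3 rises and 5 falls among 33 members at 6 months, with a median of -0.07, and 1 rise and 3 falls without replicates 4 and 6. For this and the complexes below, all genes stood at 16.1% rising and 30.1% falling at 6 months, and 14.8% and 23.2% without both libraries. Beside NDUFA4L2, the rises were NDUFA3 (log2 0.43) and NDUFV3 (log2 0.39), an accessory subunit of the NADH-oxidising module. Both rises depend on the libraries that stand apart: without them the values were 0.12 and 0.16, and neither was called. The falls were NDUFC1 (log2 -0.48), NDUFS3 (-0.35), NDUFA13 (-0.31), NDUFS1 (-0.23) and NDUFA8 (-0.19). NDUFS1 carries iron-sulfur clusters of the electron path, NDUFS3 is a core subunit of the peripheral arm, and NDUFA13, also known as GRIM19, is an accessory subunit.

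NDUFC1, a small membrane-arm subunit, ranged from 66.2 to 73.7 FPKM in unoperated and from 36.3 to 61.4 FPKM in operated eyes (medians 68.27 and 55.445), with no overlap. Its call held without replicates 4 and 6, at log2 -0.27 (limma adjusted p = 0.0044), while those of NDUFS3 (-0.16), NDUFS1 (-0.17) and NDUFA8 (-0.20) did not. NDUFA13 stood at 39.4 to 53.2 FPKM without surgery and at 30.5 to 39.3 FPKM after it, again with no overlap, and kept its call at log2 -0.29. In all, 2 members did not overlap in the higher direction (NDUFA4L2 and COX4I2, against 8.16% of all genes). In the lower direction there were 6 (NDUFA13, NDUFC1, SDHA, UQCC1, COX7A1 and ATP5I, against 12.8% of all genes).

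Complex II joins the respiratory chain to the citric acid cycle, and 1 of its 4 members fell at each age. SDHA, the flavoprotein that oxidises succinate, ranged from 95.5 to 116 FPKM (median 106) in unoperated and from 79.9 to 89.9 FPKM (median 85.2) in operated eyes at 6 months. The groups did not overlap (log2 -0.32 ± 0.06, limma adjusted p = 0.00013), and without replicates 4 and 6 the value was also -0.32. In juveniles it was 94.6 to 117 FPKM in unoperated eyes, 77.3, 81.1 and 84.2 FPKM in operated 5-week eyes and 77.7, 85.1 and 99.3 FPKM in operated 6.5-week eyes (log2 -0.32 ± 0.06, limma adjusted p = 0.00022). 1 library of 6.5 weeks reached into the unoperated range. SDHB, SDHC and SDHD were not called at either age, with values from -0.29 to 0.06.

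Complex III had 1 rise and 2 falls among 10 members at 6 months, and 2 of these 3 were assembly factors. Without replicates 4 and 6 the counts were also 1 and 2, with UQCRB called in place of UQCRFS1. UQCC2, which takes part in making cytochrome b of the complex, rose from 23.3 to 33.4 FPKM (median 27.7) in unoperated to 32.7 to 52.7 FPKM (median 37.6) in operated eyes, with a narrow overlap (log2 0.56 ± 0.12, limma adjusted p = 0.00036). It rose in juveniles too (log2 0.42 ± 0.12, limma adjusted p = 0.0059). UQCC1, which acts in the same step, fell at 6 months by 0.24 on the log2 scale, from 22.9 to 26.8 FPKM to 18.9 to 22.6 FPKM. In juveniles UQCC1 was at 0.08 and was not called. The Rieske protein UQCRFS1 was called lower at 6 months (log2 -0.38, limma adjusted p = 0.049), but without replicates 4 and 6 its value was -0.02. UQCRB, a subunit near the quinone site, fell in juveniles (log2 -0.21).

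In complex IV, cytochrome c oxidase, 3 of 13 members rose and 2 fell at 6 months, and 3 rose and 1 fell without replicates 4 and 6. Besides the isoforms above, COX7A2L, which takes part in joining complexes III and IV into supercomplexes, rose from 38.9 to 49.1 FPKM (median 41.8) to 46.6 to 56.2 FPKM (median 50.9) at log2 0.24 ± 0.06 (limma adjusted p = 0.0022). It also rose in juveniles, by 0.17. COX7C was called lower at 6 months at -0.34, and at -0.04 it was not called without replicates 4 and 6. The members COX4I1, COX5A, COX5B, COX6A1 and COX8A were not called at 6 months. On the deposited scale the median of complex IV at 6 months was 0.05 and those of complexes I, II, III and V were below 0, and under a scaling to equal library sums it was -0.10.

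The ATP synthase had 2 rises and 6 falls among 17 members at 6 months, against 16.1% and 30.1% of all genes. Its median was -0.20 and 15 of 17 values were below 0, with the median of all genes also below 0 at -0.105. Without replicates 4 and 6 there were 1 rise and 2 falls, against 14.8% and 23.2% of all genes. ATP5B ranged from 306 to 369 FPKM (median 330) in unoperated and from 253 to 307 FPKM (median 272) in operated eyes, with a narrow overlap (log2 -0.28 ± 0.07, limma adjusted p = 0.0013). In juveniles it was 283 to 372 FPKM in unoperated eyes, 257, 269 and 283 FPKM in operated 5-week eyes and 252, 277 and 319 FPKM in operated 6.5-week eyes (log2 -0.24 ± 0.07, limma adjusted p = 0.0059). ATP5A1 (-0.22), ATP5L (-0.31), ATP5G3 (-0.35) and ATP5SL (-0.52) also fell at 6 months, and none of these 4 was called without replicates 4 and 6, nor was the rise of ATP5J2 (0.26). ATP5I, the e subunit of the membrane part, fell by 0.40, but with a locus-number copy of the same subunit added the value was -0.23 and was not called (limma adjusted p = 0.095).

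ATP5G1, ATP5G2 and ATP5G3 encode the same c-ring protein with different import signals, and they did not move together. ATP5G2 rose from a median of 140 FPKM (123 to 204) to 191 FPKM (169 to 215) at 6 months, at log2 0.36 ± 0.09 (limma adjusted p = 0.0016), and by 0.32 in juveniles. ATP5G3 ranged from 136 to 173 FPKM (median 154) in unoperated and from 88.5 to 147 FPKM (median 134) in operated eyes, and ATP5G1 was not called. Relative to ATP5G2 in the same library, ATP5G3 was 80.3% to 116% in unoperated and 46.5% to 81.6% in operated eyes at 6 months. In juveniles that ratio was 89.1% to 107% in unoperated and 54.2% to 85.8% in operated eyes, with no overlap.

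In operated juveniles 5 members rose and 7 fell, against 16.5% of all genes that rose and 20.8% that fell (37.3% in either direction). Scaled to equal library sums, 3 rose and 21 fell, against 11.9% and 36.1% of all genes. The median of the members was -0.02, beside -0.056 for all genes. NDUFA4L2, UQCC2, COX4I2, COX7A2L and ATP5G2 rose at both ages, and NDUFS1, SDHA, COX7A1 and ATP5B fell at both ages. The juvenile falls not called at 6 months were NDUFA5, UQCRB and ATP5F1, at log2 -0.33, -0.21 and -0.20, and each of these, like the juvenile rise of COX7A2L, was lost on leaving out any of 3 or more single libraries. No member was called in opposite directions, 16 were called at 6 months alone, and 50 at neither age. NDUFA4L2 and COX4I2 did not overlap in the higher direction (against 7.84% of all genes), and COX7A1 did not in the lower direction (against 7.87%).

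The difference between the surgery effects was tested directly, and limma called 0 of 78 members in either direction (0.735% of all genes were called higher and 0.356% lower, 1.09% in all). At an unadjusted p under 0.05, 1 member was higher and 5 were lower, against 1667 of the 12928 genes in either direction. NDUFA4L2 came nearest, with a surgery effect larger by 0.73 at 6 months (limma adjusted p = 0.07), followed by UQCC1 at -0.32 (limma adjusted p = 0.071). Operated 6.5-week against operated 5-week eyes also gave 0 calls among the members by limma (0.00774% of all genes in each direction, 0.0155% in all). At an unadjusted p under 0.05, 4 members were higher and none lower, against 1338 of the 12928 genes in either direction. The members' median was 0.15 and 64 of 78 values were above 0, with the median of all genes at 0.00. There were 3 libraries in each group. In 6.5-week replicate 3 the members summed to 8598 FPKM, against 7243 and 7038 FPKM in replicates 1 and 2. The operated 5-week libraries were at 6807 to 7183 FPKM.

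In unoperated eyes most members had a value above 0 with age, and few were called. From 5 weeks to 6 months 13 members rose and 1 fell, against 11.4% of all genes that rose and 9.45% that fell (20.8% in either direction). The median was 0.14, beside 0.037 for all genes, and 73 of 78 values were above 0. Scaled to equal library sums, 6 rose and 1 fell, against 6.78% and 12.8% of all genes. Rises came from every complex: NDUFA7, NDUFB3 and NDUFB11 in complex I, SDHB and SDHC in complex II, UQCC1 in complex III, COX4I1, COX5B, COX6A1, COX7A1 and COX7A2L in complex IV, and ATP5H and ATP5I in complex V. COX7A1 led at log2 0.74 ± 0.18 (limma adjusted p = 0.0049), and the others were between 0.19 and 0.34. With its copy added ATP5I was at 0.13 and was not called (limma adjusted p = 0.43). NDUFB11, COX4I1 and ATP5I were also lost on leaving out 1 of several single libraries.

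SDHB, the iron-sulfur subunit of complex II, was among the smallest of these rises. It was 86.8 to 91.1 FPKM at 5 weeks and 95.6 to 117 FPKM at 6 months, with no overlap, for a log2 fold change of 0.19 ± 0.05 (limma adjusted p = 0.012). Under equal-sum and upper-quartile scaling this rise was not called. NDUFA4L2 was the member that fell, by 0.48 (limma adjusted p = 0.011). NDUFC1, SDHB and COX7A1 did not overlap in the higher direction (against 4.27% of all genes) and NDUFA4L2 in the lower (against 3.98%). The summed lens markers had a median of 3551 FPKM (663 to 41330) at 5 weeks and 1144 FPKM (933 to 4337) at 6 months, and 1 of 6 was called lower with age. Without the libraries above 1000 FPKM of the lens crystallin CRYAA, which leaves 3 of the 7 unoperated 5-week libraries, limma called 0 members in either direction, against 2.16% of all genes higher and 2.46% lower. At an unadjusted p under 0.05, 14 members were higher and 1 lower, and all genes were not counted at that limit.

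Among operated eyes, 7 members were higher at 6 months than in juveniles and 0 lower, against 5.89% and 9.78% of all genes (15.7% in either direction). At an unadjusted p under 0.05 limma gave 15 higher and 0 lower, against 3789 of the 12928 genes in either direction. Scaled to equal library sums 2 were higher, scaled by the median ratio 12, and in a fit to only the groups compared 2, with 0 lower in each. In those settings 328, 1149 and 208 of all genes were higher and 1992, 1067 and 612 lower. The 7 were NDUFA5, NDUFA7, NDUFB3, NDUFB4, SDHC, COX7A2L and ATP5J2, at log2 0.25 to 0.37. NDUFB4, an accessory membrane-arm subunit, ranged from 101 to 143 FPKM at 6 months. Its juvenile values were 80.9, 85.1 and 86.6 FPKM at 5 weeks and 90.0, 92.5 and 96.8 FPKM at 6.5 weeks, so the ages did not overlap. NDUFB4, COX7A2L and ATP5J2 had no overlap in this comparison (against 1.31% of all genes higher and 3.46% lower). Without replicates 4 and 6 the count was 4, against 4.49% of all genes. Of these, 3 were shared, COX7A2 was added, and NDUFA7, NDUFB3, SDHC and ATP5J2 were no longer called.

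The position of complexes against each other was read within each library, where scaling cancels. The mean log2(FPKM + 0.5) of complex V exceeded that of complex I by 0.785 to 0.905 in unoperated and by 0.641 to 0.760 in operated eyes at 6 months, with no overlap, and by 0.693 to 0.760 without replicates 4 and 6. The juvenile differences were 0.720 to 0.871 without surgery and 0.731 to 0.904 after it, and they overlapped. Without ATP5J alone, which may share reads with a copy, the 6-month ranges were 0.808 to 0.866 and 0.625 to 0.780, with no overlap. Without NDUFA4, NDUFA4L2, ATP5S, ATP5SL and ATP5J the ranges were 1.199 to 1.311 and 1.148 to 1.256, and they overlapped. Complexes II, III and IV against complex I overlapped between operated and unoperated eyes at 6 months.

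The counts moved with the library scaling. Scaled to equal sums of FPKM, 4 members rose and 44 fell with surgery at 6 months, while all genes stood at 1440 higher and 6118 lower and their median at -0.245. Scaled by the median ratio of all genes to a reference library, 12 rose and 10 fell, with 2786 and 2618 of all genes and a median of -0.011. The upper quartile gave 9 and 13, with 2415 and 3239 of all genes. A scaling adds nearly the same amount to every gene of a library, so it hardly moves a complex against all genes. On the deposited scale the 6-month medians lay above that of all genes by 0.15 in complex IV and 0.04 in complex I, and the differences were -0.04 in complex III, -0.09 in complex II and -0.09 in complex V. At 6 months NDUFA4L2, UQCC2, COX4I2 and ATP5G2 rose, and NDUFA13, NDUFC1, NDUFS3, SDHA, UQCC1, COX7A1, ATP5B, ATP5G3, ATP5I and ATP5SL fell, under all 3 further scalings and with any 1 library left out. Leaving out 1 library does not show what depends on replicates 4 and 6 together. Without both, the falls of NDUFS3, ATP5G3 and ATP5SL were not called, while that of ATP5I was. In a separate fit to all 26 libraries with its copy added, the fall of ATP5I was not called. In juveniles NDUFA4L2, UQCC2 and COX4I2 rose and NDUFS1, SDHA, COX7A1 and ATP5B fell under all 3 further scalings and with any 1 library left out.

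**Figure D4:**
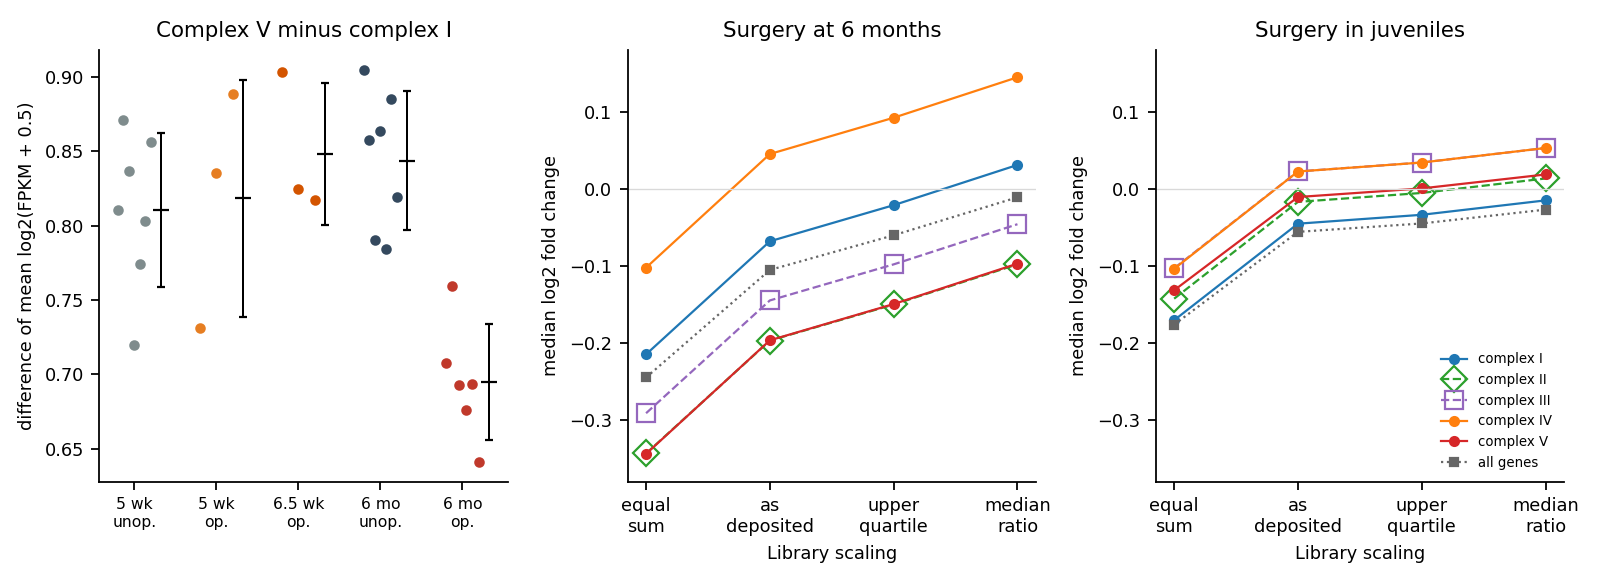
Left, the difference between the mean log2(FPKM + 0.5) of complex V and complex I in each library, with the mean and SD of each group. Middle and right, the median log2 fold change of each complex and of all genes under 4 library scalings: all lines shift together with the scaling, which moves every gene of a library alike.

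ATP5J, CYCS and COX6C were the 3 members with a mean coefficient of variation within groups over 30%. Each has further loci under locus numbers whose description names the same or a like protein, called copies here. ATP5J, coupling factor 6 of ATP synthase, was 143 to 203 FPKM in 13 libraries in which the copy LOC100344965 stood at 0 to 2.71 FPKM. In the other 13 libraries it was 67.9 to 90.2 FPKM with the copy at 85.7 to 115 FPKM, and no library lay between. Both states occurred among unoperated 5-week, operated 5-week and both 6-month groups, with the copy high in 4 of 7, 1 of 3, 3 of 7 unoperated and 5 of 6 operated libraries. In the 6.5-week group it was high in 0 of 3. With its copies added, ATP5J ranged from 145 to 206 FPKM over all libraries. The log2 fold change with surgery at 6 months was -0.45 ± 0.31 for ATP5J alone and -0.06 ± 0.06 with the copies, and neither was called.

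CYCS and COX6C were steadier once their copies were added. CYCS alone spanned 16.0 to 83.5 FPKM, a coefficient of variation of 49.5%, and 18.5% with 4 cytochrome c loci added. COX6C, a small complex IV subunit, spanned 41.1 to 163 FPKM (38.8%), and the coefficient was 11.4% with 2 loci added. The surgery effect of COX6C in juveniles was -0.61 ± 0.32 alone and 0.07 ± 0.08 with the copies, and neither was called. The sequences of the copies were not compared. Reads of copies alike in sequence may be assigned to either, so these 3 members are uncertain, and the cause of this pattern was not tested.

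**Figure D5:**
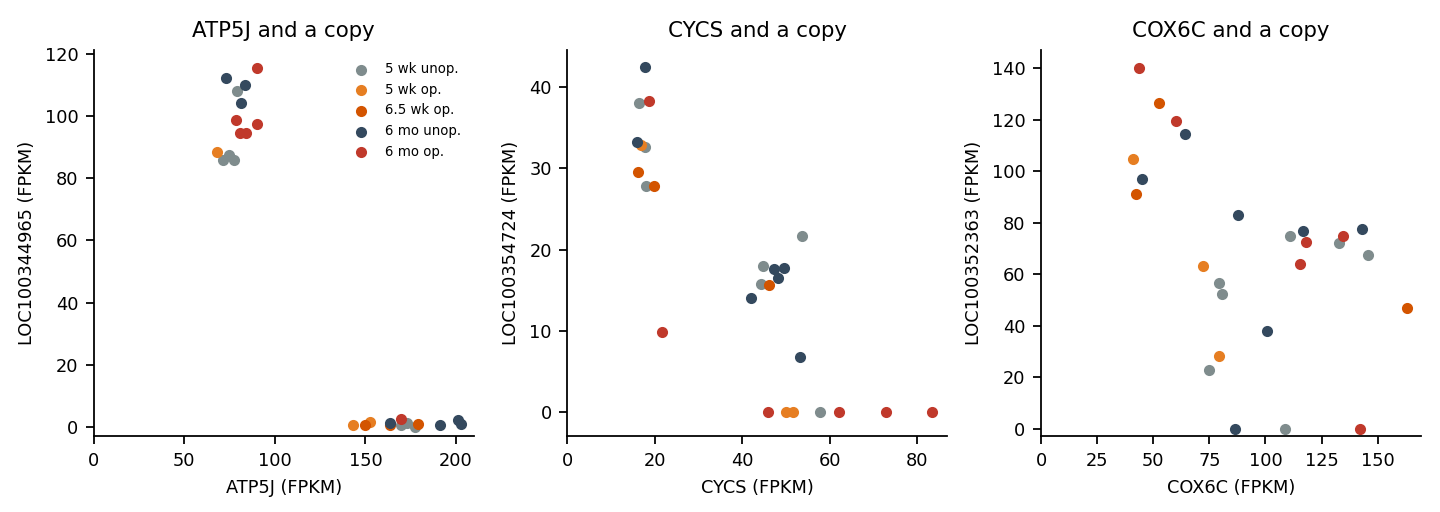
FPKM of ATP5J, CYCS and COX6C in each of the 26 libraries (horizontal) against a locus-number copy (vertical), coloured by group. ATP5J forms separate clouds of 13 libraries each, and the CYCS copy is at 0 only where CYCS itself is high.

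The other genes of mitochondrial energy metabolism were counted on lists chosen with earlier results known. For these lists and the fuel pathways below, 16.1% and 30.1% of all genes rose and fell at 6 months, and 16.5% and 20.8% in juveniles. Without replicates 4 and 6 the 6-month shares were 14.8% and 23.2%. Of 15 complex I assembly factors 7 fell and none rose, led by FOXRED1 (log2 -0.40) and TMEM186 (-0.42), and in juveniles 2 fell. All 4 ATP synthase assembly factors fell at 6 months, TMEM70 by 0.30 and ATPAF1 by 0.26, and 2 fell in juveniles. Of 23 complex IV assembly factors 10 fell, among them COA7 (-0.45) and LRPPRC (-0.47), which stabilises mitochondrial messenger RNA, and 2 rose. These counts depend on the scaling and on the pair of libraries: without replicates 4 and 6 they were 3, 2 and 3 falls, and under median-ratio scaling 5, 1 and 6. In those settings 23.2% and 20.3% of all genes fell.

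Fuel pathways were mixed. Of 18 fatty acid oxidation genes 10 fell and none rose at 6 months, led by ACADL (log2 -0.55), ECHS1 (-0.38) and ETFDH (-0.30), which passes electrons to the respiratory chain, and 5 fell in juveniles. Without replicates 4 and 6 the 6-month falls were 7. Of 18 citric acid cycle genes 7 fell and 1 rose, and without replicates 4 and 6 2 fell and 2 rose. CS, citrate synthase, was higher by 0.26, while SUCLA2 fell by 0.33. Under median-ratio scaling limma called 3 higher and 0 lower, against 21.6% and 20.3% of all genes. At an unadjusted p under 0.05 the counts were 3 and 2, and all genes were not counted at that limit. Of 21 glycolysis genes 5 rose and 5 fell, with HK2 at 1.34, PKM at 0.61 and LDHA at 0.42 against PFKP at -0.91, PFKM at -0.48 and LDHB at -0.45. LDHA favours lactate formation and LDHB its use, and the pair also parted in juveniles, at 0.49 and -0.24.

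Regulators of mitochondrial number gave 2 rises and 4 falls among 17 at 6 months and 1 rise and 5 falls in juveniles. For this list and the next, all genes stood at 16.1% rising and 30.1% falling at 6 months, and 16.5% and 20.8% in juveniles. PPARGC1A, a coactivator of respiratory genes, fell by 0.51 and 0.79, and TFAM, which packages mitochondrial DNA, by 0.41 and 0.44. PPRC1, a relative of PPARGC1A, rose by 0.69 at 6 months. Of 18 genes of the response to low oxygen 8 rose and 2 fell at 6 months, and 7 rose and 2 fell in juveniles. HIF1A rose by 1.71 and 1.38, and EPAS1 by 1.21 and 0.65, while NDRG1 rose by 1.59 in juveniles and was also called higher at 6 months. The oxygen sensor EGLN1 fell by 0.45 and 0.38.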

How the data were processed

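The authors deposited FPKM per RefSeq transcript and library for 26 iris and ciliary body libraries, per the file headers. RSEM 1.2.12, Bowtie2 2.2.5, HISAT2 2.0.4 and HISAT appear in the submitters' processing notes with no role, and a genome build was not given in what was used here. There are 16725 transcripts, each above 1 FPKM in all libraries of some group, so a member low everywhere cannot be seen. No counts were used, and the number of libraries limits the precision. Where the symbol of a coding transcript was a locus number, the RefSeq gene table replaced it by gene ID or accession (399 of 1329 replaced).

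FPKM were summed per symbol and analysed as log2(FPKM + 0.5) with limma 3.58.1 in R 4.3.3, with 1 mean per group over all 26 libraries, a mean-variance trend, robust moderation and Benjamini-Hochberg adjustment over 12928 genes. This understates changes of low genes. Groups came from the age and treatment labels. The labels do not say how animals were assigned. The procedure was tested on simulated data. The members, lists and tests were chosen with earlier results of these data known. By rule the text names members called with a log2 change of at least 0.5, the 4 with the smallest p per complex, isoform pairs, the highest and lowest members, those whose call depends on the scaling, and the leading genes of each list. Some names allowed by the rule are not printed. The members at which 6-month operated replicates 4 and 6 lie outside the other libraries, the copies, SDHB and NDUFC1 by age, and the pericyte markers were picked after their values were seen. 1 member of the counts is not reported by name here.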

Additional observations from a re-analysis of the deposited data

Results flagged for a closer look

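Across 84 measures (the 78 members, the 5 complex means and the difference between complexes V and I) in 3 groups of 6 or 7 libraries, 252 cases in all, 17 had a highest or lowest library whose gap to its neighbour exceeded the 95% limit of Dixon's test, where chance gives 12.6 (1 in 20). A library of the 6-month unoperated group, replicate 1, was high for NDUFA13 (53.21 FPKM, the next at 45.26), ATP5I (36.47, the next at 25.92) and ATP5MJ (168.2, the next at 124.05). Replicate 2 of that group was high for NDUFA4 (212.62 FPKM, the next at 179.23) and SDHB (116.61, the next at 104.26). Among 6-month operated libraries, replicate 6 was high for NDUFB9 (121.39 FPKM, the next at 103.8) and UQCRB (130.95, the next at 110.22) and low for COX7B (89.28, the next at 135.13). Replicate 4 was high for ATP5J (169.62, the next at 90.24), with the ATP5J copy at 2.71 FPKM,, and replicate 5 for NDUFB2 (78.84, the next at 72.85). Unoperated 5-week replicate 2, which held the most lens RNA, was low for UQCRFS1 (81.59 FPKM, the next at 92.19), COX5B (159.07, the next at 186.08) and ATP5A1 (228.81, the next at 266.5). In the same group, replicate 4 was high for NDUFA3 (125.34, the next at 114.87) and NDUFB11 (88.68, the next at 77.01), replicate 6 for COX4I2 (7.83, the next at 5.22) and replicate 3 for ATP5G2 (153.91, the next at 146.26). Leaving out any 1 library of either group kept the COX4I2 rise in juveniles and the NDUFA13 and ATP5I falls at 6 months.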

How the results depend on the processing

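No paired analysis was possible because every library came from another animal and the labels give the groups no shared replicate numbers. None of 58 calls of single members turned direction under any setting run. Leaving out 1 library at a time gave 7 to 9 rises and 12 to 22 falls with surgery at 6 months, 4 to 6 and 4 to 8 in juveniles, 10 to 16 and 1 to 1 with age in unoperated eyes, 5 to 12 and 0 to 0 with age in operated eyes, 0 to 1 and 0 to 0 for the difference between surgery effects, and 0 to 0 for 6.5 against 5 weeks. In the same fits 1836 to 2101 of all genes rose and 3262 to 3915 fell with surgery at 6 months. In juveniles 1935 to 2192 of all genes rose and 2318 to 2857 fell. With age 1159 to 1506 rose and 1001 to 1221 fell in unoperated eyes, and 572 to 826 and 980 to 1382 in operated eyes. Equal-sum scaling moved rises and falls to 4 and 44 at 6 months and 3 and 21 in juveniles, and rises with age to 6 in unoperated and 2 in operated eyes. Median-ratio scaling gave 10 falls at 6 months and 12 rises with age in operated eyes. Under equal-sum scaling the medians at 6 months were -0.21 for complex I, -0.34 for II, -0.29 for III, -0.10 for IV and -0.34 for V. In juveniles they were -0.17 for I, -0.14 for II, -0.10 for III and -0.13 for V, and complex III was at -0.020 with age in operated eyes. Under median-ratio scaling the 6-month medians were 0.031 for I, -0.10 for II and -0.046 for III. These shifts follow from the scaling itself, which moves every gene of a library alike. Members by deposited symbol alone gave 4 rises at 6 months and 2 in juveniles, among fewer genes. Without the libraries over 1000 FPKM of CRYAA, juvenile rises and falls were 2 and 2, against 9.92% and 10.5% of all genes. Those with age in unoperated eyes were 0 and 0 by limma, against 2.16% and 2.46% of all genes. At an unadjusted p under 0.05 they were 14 and 1, with all genes not counted at that limit. The 5-week operated libraries alone gave 2 juvenile rises, with 1516 of all genes rising. The 6.5-week ones alone gave 3 falls, with 2349 of all genes falling. Without the 5-week libraries of the latest animal numbers, juvenile falls were 4, with 2137 of all genes falling. A fit to only the groups compared gave 2 rises with age in operated eyes. Without 6-month operated replicates 4 and 6, which was chosen after seeing the data, falls at 6 months were 9 and rises with age in operated eyes 4. Summing the copies and using the deposited symbols alone were also chosen after seeing the data. Beyond the effect of fewer libraries or genes, the cause of these moves was not tested.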

Other observations

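The extremes of the members were held by few libraries. Over all 26 libraries, 6-month operated replicate 6 was the highest for 7 members and the lowest for 19, and 6-month unoperated replicates 1 and 2 were the highest for 18 and 12. Operated 6.5-week replicate 3 was the highest for 11, operated 5-week replicate 3 the lowest for 12 and unoperated 5-week replicate 2 the lowest for 10. Of the cell cycle genes, 22 of 25 fell from 5 weeks to 6 months in unoperated eyes (9.45% of all genes). With surgery at 6 months 25 of 25 rose (16.1% of all genes), with CCNB1 at log2 3.77 and CDK1 at 2.93. Of 10 listed neutrophil markers 5 were measured, and they summed to 1.36 to 4.98 FPKM in unoperated and 59.1 to 112 FPKM in operated eyes at 6 months. Only transcripts above 1 FPKM in all libraries of some group were listed. Markers this low without surgery could enter through the operated groups, so that limit favours this contrast.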
